A study of Mus musculus with 186 samples.

Results

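The hippocampus of wild-type mice was compared with neocortex from mice of the same genotype and age. The comparison used 15 of the 186 libraries of the series, chosen by their labels alone: 5 of hippocampus (HP), 5 of prefrontal cortex (PFC) and 5 of somatosensory cortex (SSC), all labelled WT for Akap11 and 12 weeks old. In the series as a whole, bulk RNA was sequenced from 6 brain regions of Akap11 wild-type, +/- and -/- mice at 4 and 12 weeks. Akap11 encodes an anchoring protein of protein kinase A. Regions were cut from frozen brain in a cryostat, and poly(A) RNA libraries were made with a stranded kit. No mutant allele and no treatment enters the groups used here. The labels used here do not state strain, sex, pooling of animals or whether equal sample numbers mark 1 animal, so p-values measure the spread between these samples. Where hippocampus is compared with cortex, the cortical value is the mean of the log2 levels of both areas, so that each area counts equally.

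As background, the hippocampus is a folded sheet of allocortex. Granule cells of its dentate gyrus receive input from the entorhinal cortex and send mossy fibres to the pyramidal cells of field CA3, which project to CA1, and the small field CA2 lies between them. The dentate gyrus also keeps a niche in which new neurons are born in adult mice. Neocortex is built of layers instead: neurons of layers 2 to 4 connect cortical areas and receive thalamic input, and neurons of layers 5 and 6 send axons out of the cortex. The hippocampus lies against the lateral ventricle with its choroid plexus, under the white matter of the corpus callosum, and beside the thalamus.

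Library totals, as estimated counts, were 36.7 to 64.8 M in HP, 40 to 69.8 M in PFC and 41.1 to 51.9 M in SSC, and mitochondrial genes took 2.53 to 4.53% of them. Levels are given as CPM, counts per 1 M counts of the scaled library size, and differences as log2 (HP minus cortex) with their standard error (SE). Every adjusted p is from edgeR's quasi-likelihood test with Benjamini-Hochberg adjustment over all genes tested. Of 16479 genes tested, 9065 differed at an adjusted p under 0.05 (55% of those tested), 4597 higher in HP (27.9%) and 4468 lower (27.1%). A difference of at least 2-fold was called for 1304 higher genes (7.91%) and 1148 lower genes (6.97%), and the median absolute log2 difference of called genes was 0.53. In 1997 genes (12.1%) all HP libraries lay above all 10 cortical ones, and in 1708 (10.4%) all lay below. Akap11 itself was at 286, 305, 235, 263 and 284 CPM in the HP libraries, 242, 199, 272, 292 and 288 CPM in PFC and 203, 251, 244, 213 and 209 CPM in SSC, a log2 difference of 0.19 ± 0.08 (adjusted p = 0.067), and it passed the threshold without HP replicate 3 (0.23, adjusted p = 0.032) and without PFC replicate 4 (0.21, adjusted p = 0.046).

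Some hippocampal libraries stood apart from the others in genes of neighbouring tissue. HP replicates 1 and 5 held 10.8 and 9.94 CPM of the striatal gene Adora2a, against 1.38 to 2.92 CPM in HP replicates 2, 3 and 4. HP replicate 4 held 31.1 CPM of the thalamic gene Tcf7l2 against 8.23 to 10.5 CPM in the other 4 HP libraries. All 5 HP libraries contained choroid plexus RNA. Counts over gene lists are therefore also given without HP replicates 1 and 5 wherever they differ, a choice made after seeing the data, and the neighbouring tissues are described further on. Each list count is to be read against the 27.9% of all genes tested that were higher in HP and the 27.1% that were lower.

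To show where the genes that carry the comparison start, the 250 bases before RefSeq's start site are printed for a pair of them: C1ql2, the dentate gene with a log2 difference of 8.66, and Prox1, a transcription factor of dentate granule cells. The sequences are RefSeq's for build GRCm38.p6, 5′ to 3′ on the gene's strand. They lie at chr1:120340332-120340581 (plus strand) and chr1:190170828-190171077 (minus strand, the first listed of 2 starts). Capitals mark the letters CANNTG, which read the same on both strands and are the core of an E-box, the kind of site that bHLH factors such as Neurod1, Neurod2 and Bhlhe22 bind.
C1ql2: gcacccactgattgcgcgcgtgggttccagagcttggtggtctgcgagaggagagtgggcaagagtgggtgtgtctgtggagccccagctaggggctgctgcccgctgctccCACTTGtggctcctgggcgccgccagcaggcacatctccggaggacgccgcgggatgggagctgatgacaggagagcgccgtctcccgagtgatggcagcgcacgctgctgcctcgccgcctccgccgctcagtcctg
Prox1: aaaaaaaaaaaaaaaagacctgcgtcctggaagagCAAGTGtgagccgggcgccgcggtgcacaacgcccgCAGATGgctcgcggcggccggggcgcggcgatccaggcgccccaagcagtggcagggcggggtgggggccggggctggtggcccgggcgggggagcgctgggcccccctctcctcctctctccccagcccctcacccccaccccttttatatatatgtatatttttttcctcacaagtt
The C1ql2 window holds 1 such match and the Prox1 window 2, against at least 1 match in 66.04% of windows of the same length over 27025 genes. The window of Dsp, a dentate gene with a log2 difference of 8.995, was read in the same way and holds 0 matches. Its sequence is not printed. A match describes the letters in this window and no more. By GENCODE's models for the same build, C1ql2 spans chr1:120340582-120343174, so that its window ends at the start of that model, and Prox1 spans chr1:190118035-190170714, so that its window lies further upstream of that model.

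Most genes of the dentate gyrus were higher in HP. Of 15 granule cell genes, all tested, 11 were higher in HP and 2 lower, with a median log2 difference of 1.07 against 0.004 for all genes tested. C1ql2, a secreted C1q-like protein of mossy fibre synapses, was at 120.0, 133, 80.5, 100.3 and 80.7 CPM in the HP libraries, at 0.148, 0.0851, 0.307, 0.175 and 0.206 CPM in PFC and at 0.233, 0.441, 0.514, 0.372 and 0.227 CPM in SSC, a log2 difference of 8.66 ± 0.17 (adjusted p = 9.1e-16). The lowest HP library, at 80.5 CPM, lay far above the highest cortical one, at 0.514 CPM. Dsp, the desmosomal protein desmoplakin, was at 85.2, 127, 77.5, 103 and 74.3 CPM in HP, 0.0422, 0.255, 0.269, 0 and 0.378 CPM in PFC and 0.106, 0.241, 0.164, 0.173 and 0.103 CPM in SSC (8.995 ± 0.22, adjusted p = 4.2e-15). Prox1, which specifies granule cell identity, was at 144, 186, 117, 173 and 124 CPM in HP, 7.84, 7.996, 11.4, 8.05 and 8.93 CPM in PFC and 11.0, 12.7, 12.6, 11.7 and 10.7 CPM in SSC (3.87 ± 0.11, adjusted p = 1.4e-14). The Prox1 groups did not overlap either, but both cortical areas kept a measurable level. Lct (lactase) rose by 5.71 ± 0.13, the tryptophan-degrading enzyme Tdo2 by 4.49 ± 0.18 and Dock10, a guanine nucleotide exchange factor, by 2.66 ± 0.06, each with HP libraries above all cortical ones. Not every gene used as a granule cell marker followed. Calb1, the calcium buffer calbindin, was lower in HP (72.3 to 97.3 CPM against 106 to 167 CPM, -0.71 ± 0.09), and C1ql3 was at 62.9 to 105 CPM in HP, between 161 to 229 CPM in PFC and 29.7 to 48.3 CPM in SSC (adjusted p = 0.38).

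Genes of the pyramidal fields were mostly higher as well. Of 10 CA1 genes, 8 were higher and 1 lower (median 1.23). Fibcd1, an acetyl-binding receptor used as a CA1 marker, was at 149.6, 210.4, 198, 149.9 and 166 CPM in HP, 9.04, 8.21, 7.55, 7.03 and 7.23 CPM in PFC and 10.6, 10.9, 14.5, 9.99 and 11.2 CPM in SSC (4.21 ± 0.09, adjusted p = 1.2e-15). Lefty1 (5.46 ± 0.19), a secreted inhibitor of Nodal signalling, Ndst4 (5.17 ± 0.15), a heparan sulphate-modifying enzyme, and the receptor Gpr161 (2.88 ± 0.11) separated the tissues as well. Spink8, a serine protease inhibitor of CA1, was at 17.2, 20.2, 18.2, 13.5 and 17.0 CPM in HP and at most 1.47 CPM in cortex (5.90 ± 0.15). Wfs1, the endoplasmic reticulum protein wolframin, was higher than in SSC (1.88) and less so against PFC (0.45, adjusted p = 0.037), and its HP libraries ranged from 185 to 451 CPM.

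In CA2, the field known for social memory, 9 of 10 genes were higher and none lower (median 1.77). Rgs14, a regulator of G-protein signalling that limits plasticity there, was at 156, 147, 161, 122 and 126 CPM in HP, 64.7, 62.2, 60.9, 55.3 and 57.3 CPM in PFC and 35.5, 29.8, 41.8, 40.1 and 32.1 CPM in SSC (1.62 ± 0.08, adjusted p = 1.7e-11). The vasopressin receptor Avpr1b was at 1.81, 1.76, 1.70, 0.965 and 0.887 CPM in HP and at 0 in 7 of the 10 cortical libraries, with no cortical library above 0.0234 CPM. The neurotrophin Ntf3 (3.37 ± 0.12), the adhesion protein Amigo2 (2.32 ± 0.12) and the AMPA receptor auxiliary subunit Cacng5 (1.77 ± 0.07) were also higher without overlap. Sostdc1 (6.31 ± 0.35) is on the CA2 list but is also a choroid plexus gene, and its HP libraries ranged from 4.69 to 22.4 CPM, with replicates 5 and 1 lowest, as for the choroid plexus gene Clic6. Pcp4 was the CA2 gene that did not pass, at 94.4 to 141 CPM in HP and 98.9 to 162 CPM in cortex.

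In CA3, 6 of 10 genes were higher and 3 lower (median 1.21). Iyd, an iodotyrosine deiodinase that marks CA3, was at 9.11, 5.99, 6.53, 8.82 and 5.65 CPM in HP, 0.253, 0.298, 0.231, 0.249 and 0.292 CPM in PFC and 0.0849, 0.120, 0.0234, 0.0496 and 0.0620 CPM in SSC (5.70 ± 0.18, adjusted p = 9.6e-14). The cortical areas differed from each other in this gene, so its log2 difference was 4.75 against PFC and 6.64 against SSC. Prss35 (2.86 ± 0.21), Cpne4 (1.501 ± 0.09), Cdh24 (1.47 ± 0.14), the kainate receptor subunit Grik4 (1.27 ± 0.10) and Bok (1.15 ± 0.13) were higher, and Spock1 (-0.75 ± 0.07), Socs2 (-0.40 ± 0.09) and Elavl2 (-0.27 ± 0.09) were lower. Of 6 genes of hilar mossy cells, which sit between granule cell layer and CA3, 4 were higher and 1 lower (median 1.14; 5 and 1 without HP replicates 1 and 5). Drd2 was at 4.76, 1.85, 2.49, 2.53 and 5.11 CPM in HP and 0.140 to 1.20 CPM in cortex (2.93 ± 0.27), but it is also a striatal gene and was highest in HP replicates 1 and 5. Calb2 was at 9.65, 7.19, 15.98, 43.9 and 6.84 CPM in HP, where replicate 4 stood above the rest, and passed the test only without HP replicates 1 and 5 (1.14, adjusted p = 0.0047, against 0.73, adjusted p = 0.063, with all libraries).

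**Figure D1:**
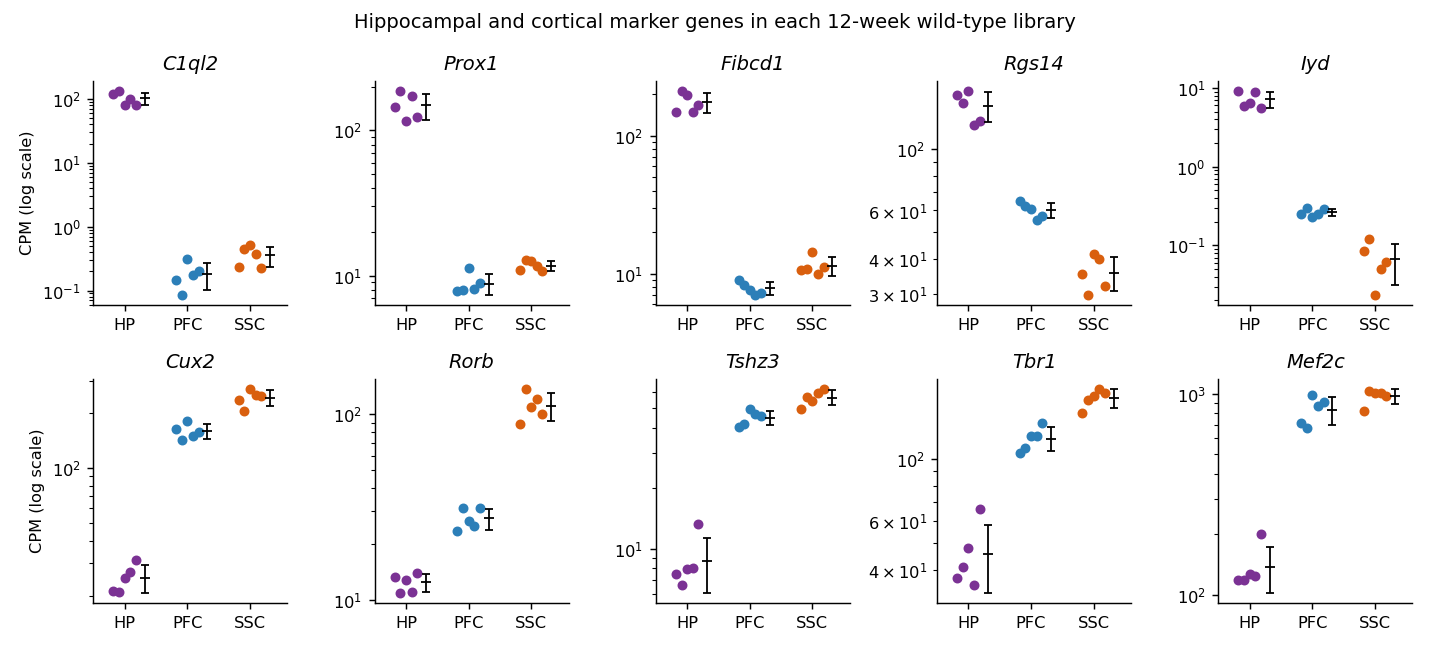
Level of 10 marker genes in each 12-week wild-type library, in CPM on a log axis, with 1 point per library of hippocampus (HP), prefrontal cortex (PFC) and somatosensory cortex (SSC) and bars for the mean and SD of each group (n = 5). The upper 5 genes (C1ql2, Prox1, Fibcd1, Rgs14, Iyd) were higher in every HP library than in any cortical one, the lower 5 (Cux2, Rorb, Tshz3, Tbr1, Mef2c) were lower, and HP replicate 5 was the highest HP library for the lower 5. The cortical layer markers Fezf2 and Foxp2, whose HP libraries overlapped cortical ones, are not shown.

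Genes of adult neurogenesis were mostly higher in HP. Of 13 such genes, 11 were higher and 1 lower (median 1.29). Igfbpl1, a marker of newborn granule neurons, was at 6.19, 6.14, 5.58, 5.50 and 3.66 CPM in HP and at most 0.0997 CPM in cortex (7.16 ± 0.34, adjusted p = 1.2e-11). Eomes, a transcription factor of intermediate progenitors, was at 0.619, 0.672, 1.32, 0.704 and 0.677 CPM in HP and 0 to 0.384 CPM in cortex (4.96 ± 0.67). The axon guidance protein Draxin (3.16 ± 0.26) and the cell cycle genes Top2a (2.64 ± 0.21) and Mki67 (1.97 ± 0.21) showed no overlap either. Levels of these genes were low, with Mki67 at 1.77 to 3.65 CPM in HP. The exception was Dcx, a microtubule protein of young neurons, which was lower in HP at 17.6, 15.1, 19.2, 15.7 and 20.4 CPM, against 21.8 to 37.96 CPM in cortex (-0.75 ± 0.12, adjusted p = 3.1e-05). Nes, of neural stem cells, did not pass (-0.05 ± 0.10).

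Upper-layer genes showed the opposite picture. Of 11 genes of layers 2 to 4, 10 were lower in HP and 1 higher, with a median log2 difference of -2.07. Cux2 was at 21.2, 21.0, 24.8, 26.8 and 31.2 CPM in HP, 163, 142, 181, 150.2 and 157 CPM in PFC and 234, 205, 270.1, 249 and 248 CPM in SSC (-2.97 ± 0.10, adjusted p = 2.4e-13). Rorb, a nuclear receptor of layer 4, was at 13.3, 10.9, 12.8, 11.0 and 14.05 CPM in HP, 23.5, 31.1, 26.8, 24.9 and 31.2 CPM in PFC and 88.2, 137, 110.1, 121 and 101 CPM in SSC (-2.16 ± 0.11, adjusted p = 3.0e-11). Both areas lay above HP, SSC by more: the log2 difference was -3.16 against SSC and -1.15 against PFC. Rspo1, an activator of Wnt signalling, had a mean difference of -3.71 (-2.01 against PFC, -5.40 against SSC), Lamp5 one of -2.77 and Otof, a protein of exocytosis, one of -3.14. The 1 higher gene was Scnn1a, a sodium channel subunit of layer 4, which was above PFC (2.25) and below SSC (-1.07).

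Deep-layer genes went both ways. Of 19 genes of layers 5 to 6b, 8 were higher and 6 lower (median 0.40; 8 and 7, median -0.03, without HP replicates 1 and 5). Tbr1, the transcription factor of layer 6 neurons, was at 37.4, 41.1, 47.7, 35.2 and 65.8 CPM in HP, 104, 109, 121, 121 and 134 CPM in PFC and 145, 162, 168, 178 and 171 CPM in SSC (-1.62 ± 0.12, adjusted p = 4.3e-09). Fezf2, which specifies layer 5 projection neurons, was lower than in PFC (-1.64) and did not pass against SSC (-0.13, adjusted p = 0.39). Bcl11b (Ctip2), known both in layer 5 and in CA1 and the dentate gyrus, was at 179, 233, 187, 158 and 161 CPM in HP against 24.5 to 62.1 CPM in cortex (2.12 ± 0.08, adjusted p = 9.3e-13). Crym, a thyroid hormone-binding protein, was at 111 to 138 CPM in HP and 110.5 to 136 CPM in PFC (log2 difference -0.03, adjusted p = 0.77) and was higher than in SSC, at 5.19 to 7.41 CPM. Nr4a2 (Nurr1) was higher in HP (2.13 ± 0.18), as were Nxph4 (2.604 ± 0.38), Hs3st4 (1.75 ± 0.12) and Fam84b (2.05 ± 0.15). Foxp2, of layer 6, was at 3.79, 1.02, 4.36, 4.69 and 10.7 CPM in HP and did not pass (-0.47 ± 0.34, adjusted p = 0.26), whereas without HP replicates 1 and 5 it was lower (-1.03, adjusted p = 0.022) and likewise without replicate 5 alone (-0.98). The layer 6b genes Ctgf and Cplx3 were highest in HP replicates 3 and 5 (8.14, 3.96, 23.4, 4.85 and 34.6 CPM and 6.59, 3.03, 15.7, 2.22 and 23.8 CPM) and did not pass.

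Transcription factors that pattern the forebrain went both ways. Of 24 listed, 11 were higher and 7 lower (median 0.28), against 27.9% and 27.1% of all genes tested. Zbtb20, a repressor needed for CA1 identity, was at 235, 441, 262, 237 and 210.4 CPM in HP, 31.1, 24.0, 28.5, 29.6 and 33.0 CPM in PFC and 31.9, 48.7, 36.0, 27.5 and 23.5 CPM in SSC (3.15 ± 0.16, adjusted p = 3.8e-11). Lhx9 was at 16.7, 12.2, 13.4, 23.1 and 12.2 CPM in HP and 0.0234 to 0.635 CPM in cortex (6.80 ± 0.27). Neurod6 (1.57 ± 0.09), Neurod2 (1.32 ± 0.12), Nfib (1.22 ± 0.07) and Nfia (1.21 ± 0.08), factors of excitatory neurons and of hippocampal development, were higher without overlap. Tshz3, a zinc finger factor, was at 7.47, 6.65, 7.97, 8.03 and 13.3 CPM in HP, 40.4, 41.5, 49.2, 46.7 and 45.9 CPM in PFC and 49.6, 57.0, 53.9, 59.1 and 62.2 CPM in SSC (-2.54 ± 0.13, adjusted p = 4.1e-11). Mef2c was at 119, 118, 127, 124 and 199.8 CPM in HP, 710.1, 678, 982, 871 and 911 CPM in PFC and 819, 1031, 1006, 1009.6 and 976 CPM in SSC (-2.71 ± 0.14). Of the COUP-TF pair, Nr2f1 was lower (-0.80 ± 0.10) and Nr2f2 did not pass (0.26 ± 0.15). Emx2 was higher (0.66 ± 0.08) and its relative Emx1 lower (-0.75 ± 0.10, of which -0.26 against PFC, adjusted p = 0.079, and -1.25 against SSC).

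**Figure D2:**
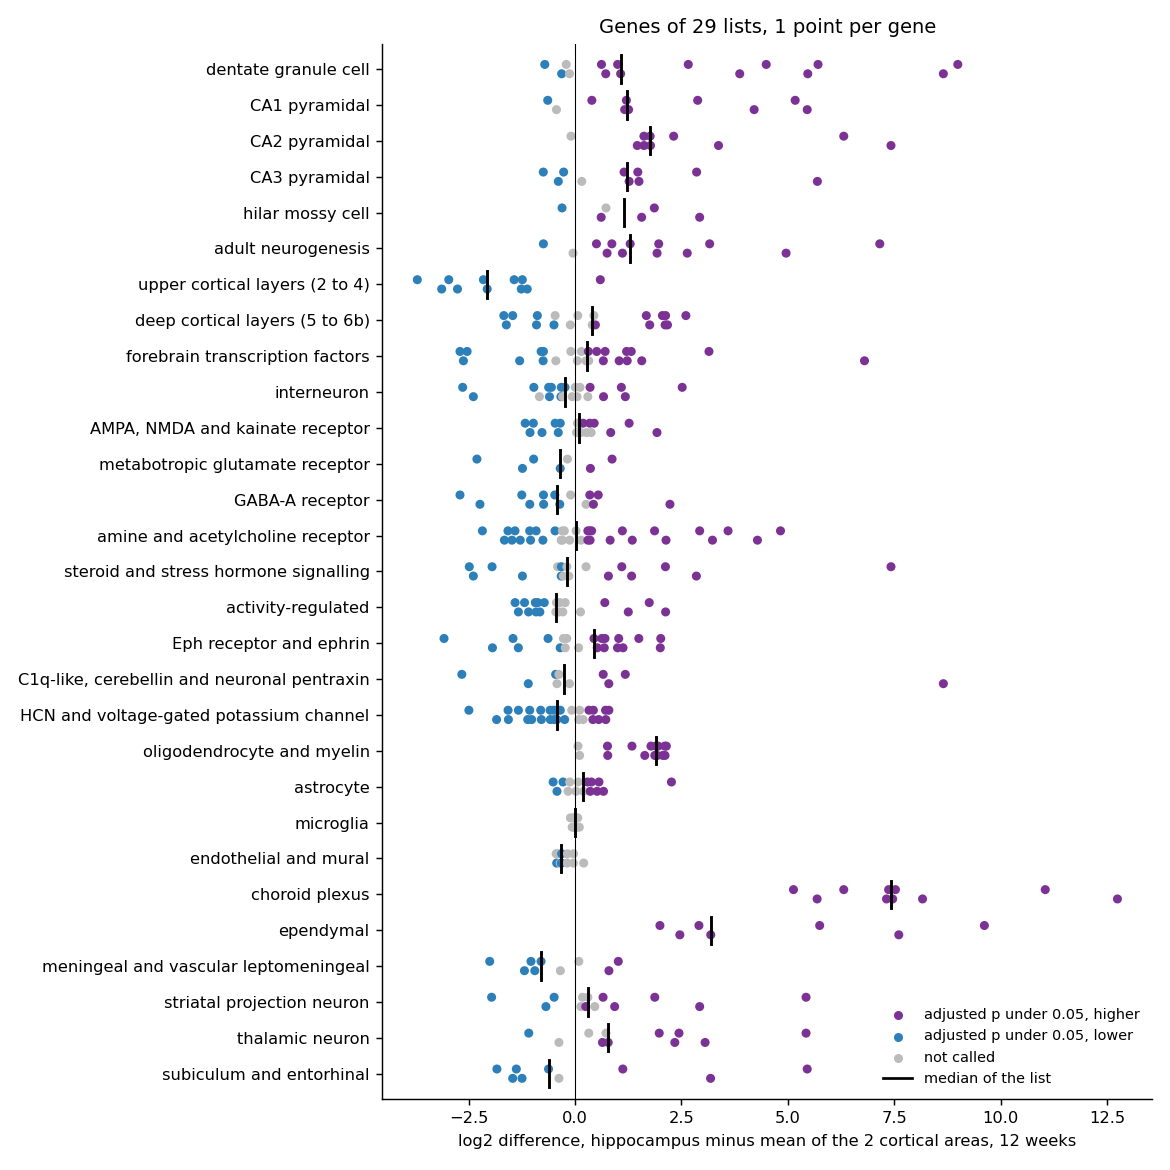
Fitted log2 difference (hippocampus minus the mean of both cortical areas, 12 weeks) of every tested gene of the 29 lists, 1 point per gene, coloured by whether it passed an adjusted p under 0.05, with a bar at each list's median. The upper-layer genes lie to the left (median -2.07), the myelin genes to the right (median 1.90) and the choroid plexus genes furthest right (median 7.42), while all 12 microglial genes lie near 0; fitted values of genes at 0 in a group, such as Otx2 and Tmem212, depend on the prior count.

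Among genes of inhibitory neurons, 5 of 21 tested were higher and 9 lower (median -0.24; 4 and 9 without HP replicates 1 and 5). The shares of all genes tested were 27.9% and 27.1%. Vip, the peptide of a class of interneurons that inhibit other interneurons, was at 8.34, 8.48, 7.32, 7.04 and 9.05 CPM in HP, 58.1, 59.4, 47.8, 44.0 and 49.9 CPM in PFC and 50.8, 59.2, 43.2, 47.1 and 43.8 CPM in SSC (-2.64 ± 0.10, adjusted p = 7.4e-13). All HP libraries were thus below all cortical ones, and the same held for Crh (-2.39 ± 0.27). Sncg (2.52 ± 0.28), Nos1 (1.18 ± 0.08) and Adarb2 (1.09 ± 0.08) were higher. Gad2, the GABA-synthesising enzyme, was at 134 to 163 CPM in HP and 131 to 176 CPM in cortex (0.00 ± 0.06), and Sst did not pass (-0.30 ± 0.17, adjusted p = 0.16). Pvalb, of fast-spiking basket cells, depended on the area: 17.6, 21.7, 18.6, 14.97 and 22.1 CPM in HP, 13.2, 14.1, 7.89, 17.0 and 11.6 CPM in PFC and 103, 117, 105, 109 and 110.2 CPM in SSC. HP was therefore above PFC (0.58, adjusted p = 0.0032) and far below SSC (-2.52). In bulk tissue, fewer cells of a type and less RNA per cell cannot be told apart.

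Receptors for glutamate differed by subunit. Of 18 ionotropic receptor genes, 6 were higher and 7 lower (median 0.10; 5 and 7 without HP replicates 1 and 5). The shares of all genes tested were 27.9% and 27.1%. Gria1, the AMPA receptor subunit GluA1, was at 1236, 1484, 1252, 1255 and 1224 CPM in HP, 472, 478, 434, 468 and 449 CPM in PFC and 253, 277, 254, 234 and 236 CPM in SSC (1.92 ± 0.05, adjusted p = 1.3e-14), while Gria4 (-1.17 ± 0.08), Gria3 (-0.40 ± 0.05) and the kainate receptor subunit Grik3 (-1.06 ± 0.14) were lower and Gria2 was higher (0.34 ± 0.06). The NMDA receptor subunit Grin2a was higher (0.84 ± 0.12), Grin3a lower (-0.78 ± 0.09) and the obligatory subunit Grin1 did not pass (0.03 ± 0.06). Of 7 metabotropic receptors, 2 were higher and 4 lower. Grm8, a presynaptic receptor, was at 3.60, 2.36, 3.67, 2.74 and 7.75 CPM in HP, 32.01, 28.7, 32.5, 41.6 and 34.3 CPM in PFC and 11.2, 9.92, 12.9, 12.0 and 12.2 CPM in SSC (-2.31 ± 0.21), Grm4 (-1.24 ± 0.11) and Grm3 (-0.98 ± 0.11) were lower.

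GABA-A receptor subunits also went both ways. Of 14 tested, 4 were higher and 8 lower (median -0.42), against 27.9% and 27.1% of all genes tested. Gabra5, the subunit of extrasynaptic receptors for which the hippocampus is known, was at 222, 226, 234, 227 and 237 CPM in HP, 57.4, 59.2, 76.1, 85.7 and 77.1 CPM in PFC and 29.1, 32.5, 33.4, 37.8 and 35.8 CPM in SSC (2.23 ± 0.08, adjusted p = 3.4e-13). Gabra3 was at 31.2, 32.4, 35.3, 32.5 and 64.4 CPM in HP, 217, 192, 232, 254 and 217 CPM in PFC and 136, 148, 161, 163 and 156 CPM in SSC (-2.24 ± 0.15), and HP replicate 5 was again the highest HP library. Gabrd (-1.25 ± 0.10) was lower, Gabrb1 (0.54 ± 0.08) higher, and Gabra4 did not pass (-0.11 ± 0.09).

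Of 33 receptors for serotonin, dopamine, noradrenaline and acetylcholine, 15 were higher and 11 lower (14 and 13 without HP replicates 1 and 5), with a median of 0.02. The serotonin receptor Htr4 was at 16.3, 20.6, 12.8, 21.1 and 16.5 CPM in HP, 1.41, 1.13, 0.903, 1.75 and 1.72 CPM in PFC and 0.170, 0.200, 0.281, 0.372 and 0.352 CPM in SSC (4.83 ± 0.17, adjusted p = 2.4e-13). Drd5, the D5 dopamine receptor, was at 18.8, 24.1, 20.6, 21.0 and 18.6 CPM in HP, 2.93, 2.98, 3.09, 4.71 and 4.05 CPM in PFC and 0.637, 0.942, 0.772, 1.04 and 0.724 CPM in SSC (3.59 ± 0.12). Both were higher without overlap, as were Htr5b (4.29 ± 0.33), Chrm5 (3.23 ± 0.38), Chrna5 (2.14 ± 0.16) and Htr1a (1.11 ± 0.12). The adrenergic receptors were mostly lower: Adra1b (-2.18 ± 0.19), Adra1a (-1.66 ± 0.14) and Adrb1 (-1.58 ± 0.12) fell, as did the serotonin receptors Htr5a (-1.41 ± 0.11) and Htr2a (-1.29 ± 0.12) and the muscarinic receptor Chrm4 (-1.48 ± 0.21). Drd1 was at 12.5, 4.20, 6.27, 5.16 and 16.4 CPM in HP and did not pass (0.14 ± 0.24), but without HP replicates 1 and 5, which had more RNA of striatal genes, it was lower (-0.64, adjusted p = 0.001).

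Of 17 genes of steroid and stress hormone signalling, 6 were higher and 6 lower (7 and 6 without HP replicates 1 and 5). The shares of all genes tested were 27.9% and 27.1%. Nr3c2, the mineralocorticoid receptor, was at 238, 302, 236, 222 and 252 CPM in HP, 31.8, 24.8, 32.6, 33.4 and 31.4 CPM in PFC and 33.4, 38.9, 46.4, 38.6 and 38.4 CPM in SSC (2.85 ± 0.08, adjusted p = 2.4e-14). Nr3c1, the glucocorticoid receptor, was by contrast at 73.9 to 103 CPM in HP, did not pass against PFC (0.05, adjusted p = 0.65) and was lower than in SSC (-0.70). Fkbp5 (1.33 ± 0.10), a chaperone partner of both receptors, and Hsd11b1 (1.10 ± 0.08), which regenerates active glucocorticoid, were higher, and the receptor Crhr1 for corticotropin-releasing hormone was lower (-1.95 ± 0.08).

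Genes induced by neuronal activity were lower more often than higher, 9 against 4 of 20 (median -0.45). Of all genes tested, 27.1% were lower and 27.9% higher. In none of the 9 lower genes were all HP libraries below all cortical ones. The areas differed: the mean log2(CPM + 1) over the list was 4.86 to 5.42 in HP, 5.23 to 6.04 in PFC and 4.71 to 5.47 in SSC. The HP range thus lay within that of SSC. Fos was at 7.78, 12.9, 15.7, 13.9 and 28.9 CPM in HP, 19.9, 59.9, 42.0, 76.9 and 56.6 CPM in PFC and 10.04, 23.6, 48.1, 16.5 and 27.8 CPM in SSC (-1.19 ± 0.36, adjusted p = 0.0099). Egr1 (-0.94 ± 0.20), Homer1 (-1.09 ± 0.21), Egr2 (-1.41 ± 0.46), Dusp1 (-1.33 ± 0.32) and Npas4 (-0.83 ± 0.26) were also lower, with Npas4 lower against PFC (adjusted p = 2.2e-05) and not called against SSC (0.34, adjusted p = 0.35). Nr4a3 (1.74 ± 0.24), Jun (1.25 ± 0.13), Nr4a2 and Bdnf (0.70 ± 0.14) were higher. Time from death to freezing is not in the labels used here, and its part in these values was not tested.

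Eph receptors and ephrins, membrane-bound guidance cues, split by member: 11 of 21 tested were higher and 6 lower (median 0.44; 11 and 5 without HP replicates 1 and 5). Epha7 was at 214, 268, 260.1, 275 and 249 CPM in HP, 60.2, 63.8, 73.7, 69.7 and 77.9 CPM in PFC and 51.7, 65.9, 54.8, 60.6 and 56.1 CPM in SSC (2.00 ± 0.07, adjusted p = 2.4e-13). The A-class receptors Epha6 (2.01 ± 0.15), Epha3 (1.13 ± 0.09), Epha4 (1.02 ± 0.07) and Epha5 (0.63 ± 0.05) were higher without overlap. Efna5, a ligand of A-class receptors, went the other way, at 2.72, 2.38, 3.91, 3.23 and 6.98 CPM in HP, 21.0, 21.6, 25.1, 27.7 and 22.6 CPM in PFC and 41.4, 45.6, 47.7, 45.6 and 39.5 CPM in SSC (-3.08 ± 0.20, adjusted p = 4.8e-10). Efnb2 (-1.94 ± 0.14) and Ephb6 (-1.46 ± 0.10) were lower and Efnb3 (1.497 ± 0.05) higher.

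Of 10 tested C1q-like, cerebellin and pentraxin genes, 4 were higher and 3 lower. Nptx1, which clusters AMPA receptors, was higher (1.18 ± 0.10), Nptx2 did not pass (-0.38 ± 0.23) and Nptxr was lower (-0.46 ± 0.08). Cbln2, which bridges neurexins and delta receptors, was at 3.09, 3.00, 6.69, 18.3 and 5.58 CPM in HP, with replicate 4 highest, against 26.8 to 71.7 CPM in cortex (-2.66 ± 0.36).

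Channels of the HCN and voltage-gated potassium families were lower more often than higher, 18 against 7 of 29 (16 against 7 without HP replicates 1 and 5), with a median of -0.43. Kcnh5 was at 5.20, 6.14, 3.91, 5.92 and 7.21 CPM in HP, 16.7, 9.26, 18.8, 18.9 and 17.1 CPM in PFC and 54.9, 80.5, 67.8, 56.9 and 57.2 CPM in SSC (-2.50 ± 0.18, adjusted p = 1.9e-09). The modifier subunits Kcnf1 (-1.85 ± 0.12), Kcnv1 (-1.58 ± 0.08) and Kcns1 (-1.57 ± 0.09) were lower without overlap. Kcnd2, the A-type channel of pyramidal cell dendrites, was higher (0.79 ± 0.07), and so was Kcna4 (0.72 ± 0.07). Hcn3, a channel of the h-current, was below PFC (-1.24) and above SSC (0.38).

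**Figure D3:**
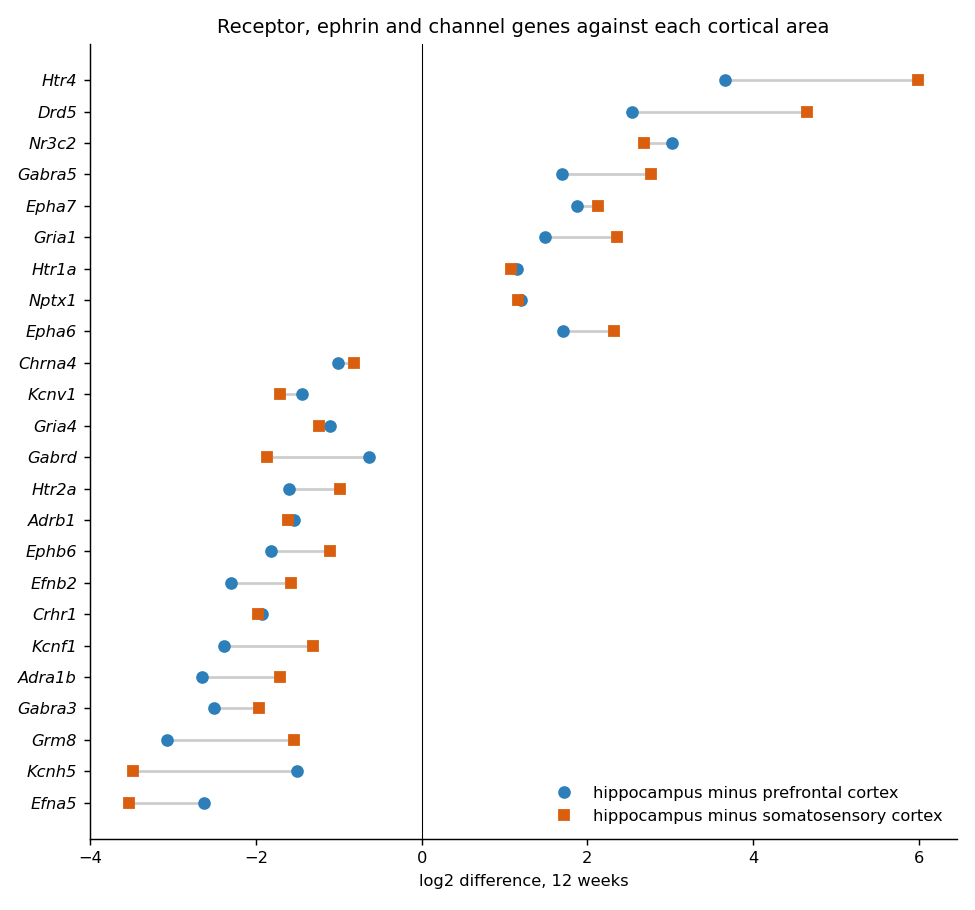
Log2 difference of 24 receptor, ephrin and channel genes, hippocampus minus prefrontal cortex (circles) and minus somatosensory cortex (squares), 12 weeks, with n = 5 libraries per region; both share the hippocampal libraries. All 24 lie on the same side of 0 against both areas, and the distance between the 2 symbols of a gene is the difference between the cortical areas, as for Htr4 (3.67 and 5.99). The 24 were picked with results known, and genes with opposite signs against the areas, such as Hcn3 and Kcng1, are not shown.

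Myelin genes were higher in HP almost throughout. Of 17 genes of the oligodendrocyte lineage, 15 were higher, all 15 without overlap, and none lower (median 1.90). Mbp, myelin basic protein, was at 1558, 1461, 1770.2, 1381 and 2089 CPM in HP, 325, 326, 234, 315 and 315 CPM in PFC and 746, 723, 690.2, 569.6 and 631 CPM in SSC (1.87 ± 0.09, adjusted p = 2.7e-11). The cortical areas themselves differed, so Mbp was higher by 2.45 against PFC and by 1.30 against SSC, and Mobp by 2.94 and 1.35. Mobp (2.14 ± 0.16), Mog (2.11 ± 0.11) and Fa2h (2.06 ± 0.11) had mean differences above the median of the list. The transcription factors Olig1 (0.77 ± 0.08) and Olig2 (0.76 ± 0.08) had smaller differences, and the precursor markers Pdgfra (0.11 ± 0.06) and Cspg4 (0.07 ± 0.10) did not pass. The mean log2(CPM + 1) over the list was 6.73 to 7.17 in HP, 4.67 to 5.04 in PFC and 5.87 to 6.01 in SSC. How much white matter each sample held is not in the labels used here, and its part in these values was not tested.

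Of 15 astrocyte genes, 7 were higher and 3 lower (5 and 5 without HP replicates 1 and 5). Gfap, the intermediate filament of astrocytes, was at 409, 313, 283, 324 and 318 CPM in HP, 103, 68.0, 67.0, 31.96 and 69.1 CPM in PFC and 82.5, 65.1, 68.5, 64.5 and 65.7 CPM in SSC (2.26 ± 0.16, adjusted p = 2.4e-09), and the water channel Aqp4 rose by 0.67 ± 0.10. The glutamate transporters Slc1a2 (-0.13 ± 0.11) and Slc1a3 (0.02 ± 0.11) did not pass, although Slc1a2 was lower without HP replicates 1 and 5 (-0.35, adjusted p = 0.015). None of 12 microglial genes passed, with log2 differences between -0.11 and 0.10, for example Cx3cr1 (0.03 ± 0.10), P2ry12 (0.04 ± 0.12) and Csf1r (-0.04 ± 0.07). Of 14 endothelial and mural genes, none was higher and 3 were lower: Vtn (-0.43 ± 0.13), Flt1 (-0.33 ± 0.11) and Abcc9 (-0.32 ± 0.10). That count was 5 without HP replicates 1 and 5, 6 without PFC replicate 4, 6 without SSC replicate 3 and 2 without HP replicate 3.

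The hippocampal libraries also carried RNA of tissue next to the hippocampus. All 10 choroid plexus genes were higher in HP (median 7.42). Ttr, transthyretin, was at 1183, 2905, 3415, 3259 and 572 CPM in HP, 0.169, 0.170, 0.0768, 0.0499 and 0.103 CPM in PFC and 0.403, 1.14, 2.69, 0.0496 and 0.207 CPM in SSC (12.75 ± 0.54, adjusted p = 2.7e-12). HP replicates 1 and 5 had the lowest Ttr of the group and were still far above the highest cortical library. Clic6, a chloride channel of the same epithelium, was at 23.3, 69.6, 69.3, 72.3 and 13.3 CPM in HP and at most 0.541 CPM in cortex. Otx2 was at 6.05, 12.95, 14.7, 20.1 and 2.73 CPM in HP and at 0 in all PFC libraries, so HP was at least 1011-fold higher than PFC, taking a floor of 3 counts over the group (0.0112 CPM). Of the 12 genes named for the largest differences toward HP, 8 (Ttr, Slc4a5, Mfrp, Clic6, Folr1, Cldn2, Sostdc1 and F5) are known from the choroid plexus, and Dsp, C1ql2, Lhx9 and Spink8 are the other 4. All 7 ependymal genes were higher too (median 3.19), and Tmem212, at 4.07, 8.12, 3.95, 5.74 and 1.12 CPM in HP and 0 in all SSC libraries, was at least 350.3-fold higher than in SSC by the same floor (0.0131 CPM). The mean log2(CPM + 1) of the choroid plexus list was 3.36 to 5.54 in HP, 0.302 to 0.408 in PFC and 0.288 to 0.482 in SSC, and that of the ependymal list 1.74 to 3.63 in HP and at most 0.827 in cortex. The part of this tissue in other differences was not tested. At 4 weeks, HP library 23 was at 0.379 CPM of Ttr and 0.343 CPM of Clic6, and it held 54.4 CPM of C1ql2, 67.9 CPM of Dsp and 52.9 CPM of Fibcd1, with the other 5 HP libraries of that age at 45.9 to 93.7 CPM, 61.6 to 122 CPM and 94.9 to 189 CPM. The same library had the most RNA of thalamic genes among the 6, with 517 CPM of Prkcd and 142 CPM of Tcf7l2.

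Striatal and thalamic genes varied between hippocampal libraries. Of 13 striatal genes tested, 6 were higher and 3 lower with all libraries, against 3 and 4 without HP replicates 1 and 5, and the median moved from 0.30 to 0.007. Adora2a, the adenosine receptor of indirect-pathway neurons, was at 10.8, 1.42, 2.92, 1.38 and 9.94 CPM in HP and 1.04 to 1.88 CPM in cortex, and its difference of 1.87 ± 0.39 (adjusted p = 4.9e-04) became 0.39 (adjusted p = 0.17) without those 2 libraries. Penk, the enkephalin precursor, went from 0.66 to 0.19 (adjusted p = 0.22). The mean log2(CPM + 1) of the striatal list was 3.32 and 3.39 in HP replicates 1 and 5, 2.23 to 2.67 in replicates 2 to 4 and 2.62 to 2.76 in cortex. Of 11 thalamic genes tested, 7 were higher and 1 lower (median 0.78; 8 and 1, median 1.14, without HP replicates 1 and 5; 2 lower without HP replicate 4). Prkcd, protein kinase C delta, was at 66.5, 53.8, 33.6, 82.8 and 61.2 CPM in HP, 9.74, 8.32, 7.86, 6.93 and 7.49 CPM in PFC and 8.09, 6.03, 6.34, 6.10 and 5.19 CPM in SSC (3.06 ± 0.15, adjusted p = 1.5e-11), and Tcf7l2 at 10.5, 8.23, 10.4, 31.1 and 10.03 CPM in HP and 1.80 to 3.63 CPM in cortex (2.34 ± 0.25). The transcription factor Six3, on both lists, was at 1.16, 0.872, 1.68, 1.10 and 0.933 CPM in HP and at most 0.0601 CPM in cortex. The mean log2(CPM + 1) of the thalamic list was 3.30 to 4.24 in HP, with replicate 4 highest, 2.59 to 2.73 in PFC and 2.77 to 2.93 in SSC. The part of these tissues in the differences above was not tested beyond the values given without HP replicates 1 and 5.

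**Figure D4:**
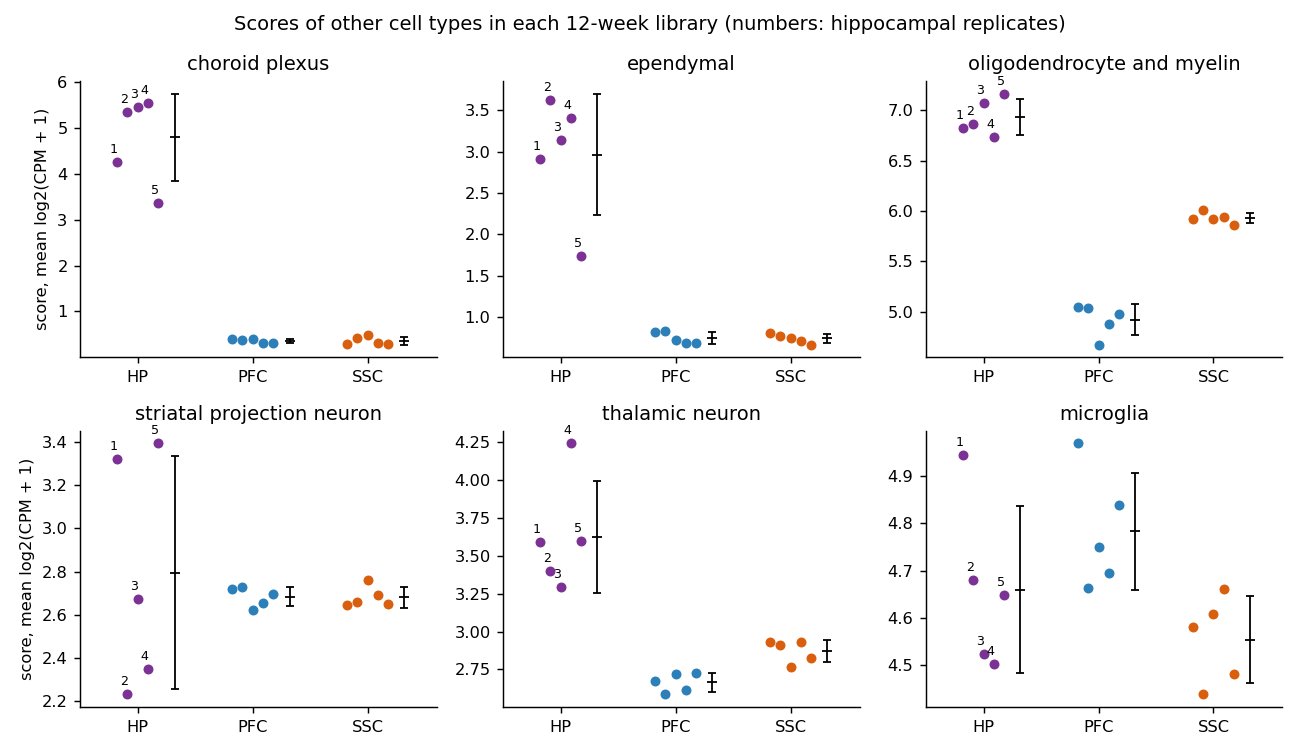
Mean log2(CPM + 1) over the genes of 6 cell type lists in each 12-week library, 1 point per library, with bars for the mean and SD of each region (n = 5) and the replicate number beside each hippocampal (HP) point; PFC, prefrontal cortex, and SSC, somatosensory cortex. The choroid plexus score of HP lies between 3.36 and 5.54, above every cortical library, HP replicates 1 and 5 are high for the striatal list, replicate 4 is high for the thalamic list, and the microglial scores of the regions overlap.

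Meningeal genes were lower more often than higher, 5 against 2 of 9, and Slc22a6, a transporter of leptomeningeal cells, was at 2.88, 2.27, 2.72, 4.30 and 2.05 CPM in HP against 6.07 to 18.7 CPM in cortex (-2.01 ± 0.21). Without HP replicates 1 and 5 the count was 4 against 2. Of 9 genes tested of the subiculum and entorhinal cortex, which adjoin the hippocampus, 3 were higher and 5 lower. Rxfp1, the relaxin receptor, was at 2.13, 1.69, 2.49, 0.835 and 11.8 CPM in HP and 7.20 to 23.7 CPM in cortex, with HP replicate 5 the only HP library above the lowest cortical one (-1.84 ± 0.41).

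The 12 genes with the largest difference toward cortex belonged to none of the lists. Adam33, a metalloprotease, was at 0.124, 0.127, 0.243, 0.235 and 0.537 CPM in HP, 4.89, 10.3, 4.90, 4.69 and 5.44 CPM in PFC and 37.1, 21.9, 22.0, 19.9 and 36.3 CPM in SSC (-5.74 ± 0.35, adjusted p = 3.1e-10). Tgm3, a transglutaminase, was at 0.109 to 0.653 CPM in HP and 6.11 to 10.9 CPM in cortex (-4.76 ± 0.26). Dkkl1 (-4.72 ± 0.33), Prg4 (-4.40 ± 0.38), Igfn1 (-4.36 ± 0.30), the T-cell surface receptor Cd6 (-4.33 ± 0.42) and the sarcomere protein Tcap (-4.22 ± 0.40) followed, then Ovol2, Vill, Slc47a1 and Tspan11 at -4.17 to -3.76. HP replicate 5 was the highest HP library for Adam33, Dkkl1, Cd6 and Tspan11, as it was for Tbr1 and Mef2c. Lack of overlap was a condition for naming these 12 genes, so HP libraries below every cortical one were built in.

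Since the cortical areas differ from each other, the comparison was also made with each, sharing the 5 HP libraries. Against PFC, 8393 genes were called (50.9%), 4347 of them higher (26.4%) and 4046 lower (24.6%), and against SSC, 9060 (55%), 4515 of them higher (27.4%) and 4545 lower (27.6%). In both and in the same direction, 5573 were called (33.8%), of which 2920 were higher (17.7%), and 561 (3.4%) were called in opposite directions. Genes of the last kind were picked for naming after their values were seen. Grp, gastrin-releasing peptide, was at 1.28, 1.65, 0.933, 1.25 and 2.66 CPM in HP, 21.1, 19.0, 17.998, 14.5 and 18.5 CPM in PFC and 0.743, 0.642, 0.889, 0.595 and 0.496 CPM in SSC, a log2 difference of -3.56 against PFC and 1.20 against SSC. Rspo2 (-2.54 and 0.92) and Lypd1 (-0.46 and 2.74) had the same order. The reverse order, above PFC and below SSC, was seen for Syt2, a calcium sensor of synaptic vesicles, at 18.8 to 39.8 CPM in HP, 7.59 to 15.3 CPM in PFC and 231 to 302 CPM in SSC (1.16 and -3.33). Tmem215 (1.79 and -2.64), Kcnab3 (0.49 and -3.47), Scn4b (1.08 and -2.33) and Kcng4 (2.84 and -1.17) had this order too.

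The same comparison at 4 weeks, in 16 other wild-type libraries (6 HP, 5 PFC and 5 SSC), gave 9285 called genes of 16367 (56.7%), 4722 higher (28.9%) and 4563 lower (27.9%). Of the genes at least 2-fold higher at 12 weeks and tested at both ages, 1252 of 1256 (99.7%) had the same sign at 4 weeks, and of those at least 2-fold lower, 1071 of 1089 (98.3%), against 83.4% of all 16203 genes tested at both ages. C1ql2 stood at 8.37 at 4 weeks, Prox1 at 4.13, Fibcd1 at 3.49, Cux2 at -2.50, Gria1 at 1.59 and Mbp at 2.07 on the log2 scale. Dcx differed from this: it was lower in HP at 12 weeks and did not pass at 4 weeks (-0.01, adjusted p = 0.97), though its change with age did not pass either (adjusted p = 0.087).

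Between the ages, 203 of 16932 genes (1.2%) changed their difference between hippocampus and cortex, 69 upward (0.408%) and 134 downward (0.791%), and 2890 (17.1%) did so at an unadjusted p under 0.05. Among protein-coding genes with an average log2 CPM of at least 2, the largest upward change was that of Cort, cortistatin, an interneuron peptide. It was at 2.11 ± 0.50 CPM (SD, n = 6) in HP at 4 weeks and 5.22 ± 1.22 CPM (SD, n = 5) at 12 weeks, while PFC went from 7.59 ± 1.56 to 6.36 ± 1.65 CPM and SSC from 4.21 ± 0.81 to 4.02 ± 0.34 CPM (SD, n = 5 each), a log2 change of 1.45 ± 0.22 (adjusted p = 0.0022). Lrrc10b (1.36), Tnnc1 (1.22) and Tnfrsf25 (1.17) came next by the same limits, and in these 3 the cortical means were lower at 12 weeks than at 4 weeks, for Tnfrsf25 5.56 against 11.9 CPM in PFC and 3.65 against 9.06 CPM in SSC, with 17.3 and 17.5 CPM in HP. Downward, Grid2ip changed by -3.10 ± 0.59 (adjusted p = 0.0089), Rab37 by -2.69, Prkcd by -2.08 ± 0.49 (adjusted p = 0.033) and Rgs16 by -2.05. Their 4-week HP libraries were uneven: Prkcd was at 47.5, 56.6, 117, 129, 338 and 517 CPM, against 33.6 to 82.8 CPM at 12 weeks, and Tcf7l2 at 8.80 to 142 CPM. The PFC and SSC means of Grid2ip, Rab37, Prkcd and Rgs16 were also higher at 12 weeks than at 4 weeks. In SSC, Grid2ip went from 3.48 to 8.13 CPM, Rab37 from 1.30 to 4.17 CPM, Rgs16 from 8.59 to 13.3 CPM and Prkcd from 5.56 to 6.35 CPM. The median of the thalamic list was 2.48 at 4 weeks against 0.78 at 12 weeks. The part of thalamic RNA in these 4 changes was not tested. The count of 203 moved with single libraries, from 60 without HP replicate 2 at 12 weeks to 638 without HP replicate 92 at 4 weeks.

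**Figure D5:**
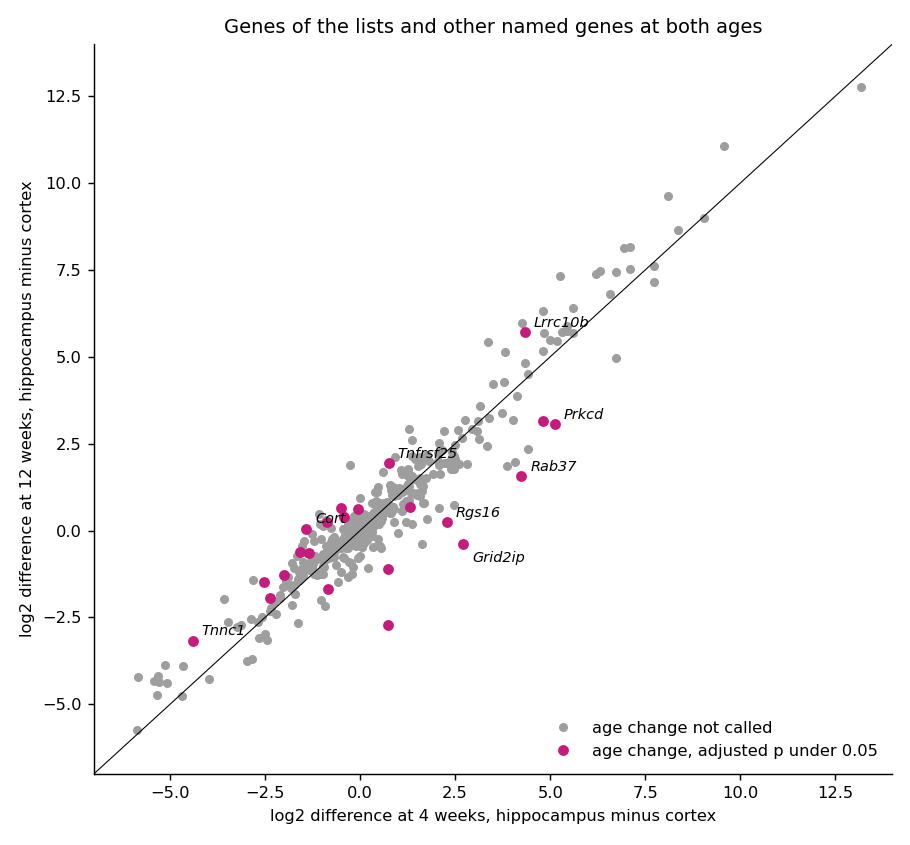
Log2 difference, hippocampus minus the mean of both cortical areas, at 4 weeks (x axis) and at 12 weeks (y axis) for 426 list members and other named genes, 1 point per gene, with the line of equal values. The 22 genes whose change with age passed an adjusted p under 0.05 are coloured. Some of them are labelled, of which Prkcd, Rab37, Rgs16 and Grid2ip lie below the line.

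Beside the other regions of 12-week wild-type brain (striatum, thalamus and substantia nigra, 5 libraries each), 894 of 17180 genes (5.2%) were higher in HP than in each of the 5 others and 477 (2.78%) lower. Of the 1304 genes at least 2-fold higher than cortex, 487 (37.3%) were among them, against 5.41% of all genes tested in the cortical comparison. Both sets required HP to differ from the same cortical libraries, so an excess was built in, here and for the lower genes below. Zbtb20 had a mean of 275 CPM in HP and at most 85.9 CPM elsewhere, Dsp 92.6 CPM and at most 0.582 CPM, and Fibcd1 173 CPM and at most 30.2 CPM. C1ql2 was at 102 CPM in HP but also at 48.2 CPM in the substantia nigra samples, and Prox1 at 148 CPM in HP and 108 CPM in the thalamus. Lhx9 (33.5 CPM in thalamus, 15.4 CPM in HP) and Iyd (12.0 and 7.16 CPM) had higher means in the thalamus than in HP, and Rgs14 was at 122 CPM in striatum beside 141 CPM in HP. Of the 1148 genes at least 2-fold lower than cortex, 145 (12.6%) were lower in HP than in each of the 5 other regions, against 2.88% of all, whereas Cux2 was lower still in the striatum (10.7 CPM against 24.8 CPM in HP) and at 134 CPM in the thalamus. These means use the scaling of the 6-region fit.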

How the data were processed

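The values used were estimated counts per gene symbol, deposited by the authors in 1 table for all libraries. Salmon and build mm10 are named in the submitters' processing notes; its version, the annotation and the use of strand are not stated. The expected counts were rounded to whole numbers, scaled by TMM, filtered for low counts and tested with edgeR 4.0.16 (R 4.3.3, quasi-likelihood, Benjamini-Hochberg, adjusted p under 0.05), with a mean for each region. The method was tested on simulated data, in which 65% of log2 changes of 0.75 and 100% of those of 1.5 were called for the comparison at 12 weeks (16479 genes), against 29% and 99% for the change with age (16932 genes). The simulation gave every gene the same relative spread, changed few genes and held no neighbouring tissue, so these shares may differ in the real data. Overlapping and antisense genes may share reads. Gene positions came from GENCODE M21, matched by symbol for 27122 of 28338 genes (95.7%). No library was left out of the main values. No 2 replicates agreed within sampling noise.

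Genes were named by rule: the 12 with the largest difference in each direction that were protein-coding, called, on average above 2 on the log2 CPM scale and without overlap between HP and both areas; up to 4 called members of each list, and members that did not pass; and 4 genes in each direction whose difference changed most with age, with the same limits on type and level. Any further gene was picked with its values in view. Some genes that meet these rules are not reported here. The comparison and the lists were chosen with earlier results of these data known. Left out of all tests for low counts were Nkx2-1, Gabra6, Gabrp, Drd3, Epha1, C1ql4, Isl1, Gbx2 and Nts. Alternatives were DESeq2 1.42.0, other scaling and filters, a replicate block and leaving out each library.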

Additional observations from a re-analysis of the deposited data

Results flagged for a closer look

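Single libraries stood apart from the other 4 of their group in 12 of 189 groups of values tested (6.35%), where chance gives about 1 in 20. HP replicate 5 was the one for 4 genes that are higher in cortex: Adam33 at 0.537 CPM, Dkkl1 at 2.71 CPM, Cd6 at 1.17 CPM and Tspan11 at 2.22 CPM, against at most 0.243, 0.756, 0.304 and 0.943 CPM in the other HP libraries. In PFC, Adam33 was at 10.3 CPM in replicate 2 and Ovol2 at 8.79 CPM in replicate 1, the lowest of its group. In SSC, replicate 3 stood out for Cldn2 (0.164 CPM) and Fibcd1 (14.5 CPM) and replicate 2 for Tspan11 (45.9 CPM). Among the mean log2(CPM + 1) of lists, PFC replicate 1 was low for CA1 genes (4.8), PFC replicate 5 high for CA3 genes (4.74) and PFC replicate 2 low for metabotropic glutamate receptors (5.84).

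The difference between hippocampus and cortex changed from 4 to 12 weeks, by the edgeR test of the change itself, for 22 of 426 list members and other named genes. It moved upward for Cort (1.45), Lrrc10b (1.36), Tnnc1 (1.22), Tnfrsf25 (1.17), Penk (1.15), Ppp1r1b (1.09), Chrm4 (1.04), Npy (0.93), Itpka (0.80), Ephb3 (0.70), Htr2a (0.69), Npnt (0.65) and Crhr1 (0.39). It moved downward for the GABA-A receptor subunit Gabrq (-3.45), Grid2ip (-3.10), Rab37 (-2.69), Prkcd (-2.08), Rgs16 (-2.05), the synaptic organiser Cbln4 (-1.86), the guidance protein Draxin (-1.67), Deptor (-0.84) and the astrocyte water channel Aqp4 (-0.66). Draxin was at 5.74 ± 2.19 CPM (SD, n = 6) in HP at 4 weeks and 2.43 ± 0.27 CPM (SD, n = 5) at 12 weeks, and Aqp4 at 192 ± 12.8 CPM and 120.5 ± 21.2 CPM. Gabrq was near the floor, at a mean of 0.111 CPM in HP at 12 weeks and 0.0672 to 2.70 CPM at 4 weeks. For Cbln4, the 4-week HP median was 7.80 CPM and the highest HP library 36.5 CPM, while the SSC mean went from 17.0 to 42.7 CPM. Without HP replicates 1 and 5, the 12-week difference of the striatal gene Penk went from 0.66 to 0.19 (edgeR, adjusted p = 0.22). That of Ppp1r1b, also a striatal gene, went from 0.25 (edgeR, adjusted p = 0.016) to 0.10 (adjusted p = 0.32). Their change with age was not tested without both libraries. Causes were not tested.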

How the results depend on the processing

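Of 714 values of the genes named by the first rule and of 10 further genes under the alternatives, 709 kept direction and side of the threshold, and 5 newly passed: Akap11 without HP replicate 3 and without PFC replicate 4, and Foxp2 with the replicate block (-0.66), without HP replicates 1 and 5 (-1.03) and without HP replicate 5 (-0.98). Genes of the first rule were chosen from these same libraries for large differences without overlap. That they kept their side was thus largely built in. The count of 9065 genes was 9069 with another scaling, 9401 without a filter, 9274 with DESeq2 and 8409 without HP replicates 1 and 5; requiring a call against both areas in the same direction left 5573. Leaving out 1 library gave 8457 to 9174 genes, and 8640 to 9404 of the 9285 at 4 weeks. The labels do not say that sample numbers pair the libraries, and not every same-numbered pair deviated together (correlations of -0.20 to 0.46 over 15 pairs at 12 weeks, 9 over 0.1). Replicate 1 did, at 0.46, 0.35 and 0.43 between the 3 regions, and 4 of the 15 pairs, 3 of them of replicate 1, correlated best with their own number. With the replicate block the count was 9431 at 12 weeks, 8668 at 4 weeks and 241 for the change with age. More list genes were then lower: 8 rather than 3 endothelial and mural, 12 rather than 9 activity-regulated and 2 rather than 1 CA1 genes. The same held for 8 rather than 7 forebrain factors, and for 7 rather than 6 Eph and ephrin, steroid and stress, and deep-layer genes. Astrocyte genes and C1q-like, cerebellin and pentraxin genes had 4 rather than 3 lower. The deep-layer median went from 0.40 to 0.08. The 203 genes whose difference changed with age became 585 with DESeq2, and 60 to 638 when 1 library was left out. That count was 94, 60 and 100 without HP replicates 1, 2 and 3 at 12 weeks, 75, 83 and 638 without HP 23, 914 and 92 at 4 weeks, and 109 to 124 without each of 11 cortical libraries (PFC 1, 3 and 5 and SSC 1, 2 and 4 at 12 weeks; PFC 142, 23 and 914 and SSC 142 and 914 at 4 weeks). The causes were not tested. Genes at a few counts per library, such as Avpr1b and Eomes, are limited by depth.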

Other observations

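At 4 weeks, 3 of the 16 libraries differed in how their estimated counts were distributed: 5.42% of the values above 0 in PFC 914, 5.34% in SSC 142 and 4.80% in SSC 914 were whole numbers, against 20.7 to 31.1% in the other 13. What set these libraries apart is not recorded in the labels.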
